A study of Mus musculus with 17 samples.

Results

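The genes described here make, cut or bind hyaluronan, and they were followed in cultures of mouse lung cells, labelled as primary fibroblasts, with or without an induced deletion of Ephb4 in Col1a2-expressing cells: the synthases Has1 and Has2, the degrading proteins Cemip, Hyal1 and Hyal2, the receptor Cd44, and the binding proteins Vcan and Tnfaip6. They are 8 of the 55421 rows of the deposited gene count matrix, each found by its gene name. Cemip was picked because its level was far higher after bleomycin than after PBS in Ephb4 control mice, and the other members were picked for their known part in hyaluronan turnover. The comparison of bleomycin with PBS in Ephb4 control mice is therefore given as a description only. Of the members, 7 of 8 passed the filter on low counts, which asked for more than 10 CPM (a gene's counts scaled to a common library size) in at least 2 libraries and kept 10481 genes. Has1 did not pass.

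All mice carried the floxed Ephb4 alleles and the Col1a2-CreERT2 transgene, in which the Col1a2 promoter drives an inducible Cre. At 4 weeks of age, Ephb4 CKO mice received 4-hydroxytamoxifen at 1 mg per day for 5 days to delete Ephb4, and Ephb4 control mice received corn oil, so that the drug and the deletion cannot be told apart. At 6 weeks the mice were given bleomycin (1.2 U/kg), a drug that injures the lung, or PBS into the trachea, and the lungs were taken on day 14. Cells grown out of each lung were passaged a single time, with no treatment in the dish, and total RNA was sequenced as 1 library per mouse: 4 Ephb4 control mice after PBS, 4 Ephb4 control mice after bleomycin, 5 Ephb4 CKO mice after PBS and 4 Ephb4 CKO mice after bleomycin.

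Hyaluronan is an unbranched sugar polymer that synthases at the plasma membrane extrude directly into the matrix, using uridine diphosphate sugars from the cytosol as substrates. Hyaluronidases and the secreted or membrane-bound Cemip proteins shorten it, Cd44 anchors it to the cell, and versican and the product of Tnfaip6 bind and organize it. In the lung it is known as a component of the provisional matrix that forms after injury, and fibroblasts are a main source of it.

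Several libraries stood apart and bear on what follows. Libraries held between 66540022 and 120554468 counts in total, and statements on counts of 0 to 3 cover counting error only. Xist and the Y-linked genes went against the labelled sex in 3 libraries, namely mice 1 and 2 of the Ephb4 CKO bleomycin group and mouse 2 of the Ephb4 control bleomycin group. The animal numbers fall into a series starting with 11 and a series starting with 12, and all 4 Ephb4 control bleomycin mice belong to series 12, together with Ephb4 control PBS mouse 1, Ephb4 CKO PBS mice 1 and 2, and Ephb4 CKO bleomycin mice 1 and 2. The summed level of 14 fibroblast marker genes ran from 69.6 to 9106 CPM in Ephb4 control PBS libraries, from 8419 to 16304 CPM in Ephb4 control bleomycin libraries, from 145 to 2674 CPM in Ephb4 CKO PBS libraries, and from 122 to 2809 CPM in Ephb4 CKO bleomycin libraries. Those markers were Col1a1, Col1a2, Col3a1, Pdgfra, Pdgfrb, Dcn, Lum, Thy1, Fn1, Sparc, Postn, Fbn1, Mmp2 and Loxl1. None of them was at 0 in every library of a group. The summed level of 19 macrophage markers ran from 9427 to 42833, from 1279 to 19292, from 18398 to 35394, and from 19522 to 40496 CPM in the same order. The macrophage sum was above the fibroblast sum in every library of the 4 groups but Ephb4 control bleomycin mouse 1 (1279 against 14081 CPM). The markers thus went against cultures of the labelled cell type alone. In Ephb4 CKO libraries the macrophage sum was 18398 CPM or more and the fibroblast sum 2809 CPM or less. In bulk RNA, fewer cells of a type and less RNA per cell cannot be told apart. Ephb4, the targeted gene, ranged from 2.45 to 32.5 CPM in Ephb4 control PBS libraries, from 13.7 to 66.5 CPM in Ephb4 control bleomycin libraries, from 4.02 to 22.0 CPM in Ephb4 CKO PBS libraries, and from 5.13 to 14.2 CPM in Ephb4 CKO bleomycin libraries. These ranges overlapped, so that the level of Ephb4 over all its exons did not by itself mark the CKO libraries. After bleomycin the Ephb4 log2 fold change between CKO and control mice was −2.00 (SE 0.79, edgeR adjusted p = 0.22).

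The 250 bases before the RefSeq start of Cemip and of Vcan are shown because Cemip was the member that stood highest above its PBS level and Vcan the one that followed Has2 most closely. Letters in capitals mark matches, on either strand, to the motif known as the TATA box, spelled TATAAA. Capitals also mark the CCAAT box, spelled as its name, and the GC box, spelled GGGCGG. The Cemip window is chr7:84086506-84086755 and the Vcan window is chr13:89742513-89742762, both GRCm38, minus strand, written 5′ to 3′.
Cemip: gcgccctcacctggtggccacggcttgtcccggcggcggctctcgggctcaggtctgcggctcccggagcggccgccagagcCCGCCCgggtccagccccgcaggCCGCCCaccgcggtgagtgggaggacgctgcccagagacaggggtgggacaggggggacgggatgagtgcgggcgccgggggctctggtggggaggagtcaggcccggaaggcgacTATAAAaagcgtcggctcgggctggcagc
Vcan: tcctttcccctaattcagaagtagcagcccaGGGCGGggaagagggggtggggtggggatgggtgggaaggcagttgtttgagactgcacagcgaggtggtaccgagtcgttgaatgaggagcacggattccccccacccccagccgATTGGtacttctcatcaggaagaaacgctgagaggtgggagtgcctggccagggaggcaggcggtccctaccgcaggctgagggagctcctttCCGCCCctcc
The Cemip window held 75.2% G and C, with TATAAA starting 29 bases before the start and a pair of GC boxes 168 and 145 bases before it. The Vcan window held 62.4% G and C, with a CCAAT box on the opposite strand 103 bases before the start and GC boxes 219 and 10 bases before it, and no TATAAA. Of 32851 mouse promoter windows of the same length, 12.4% held TATAAA, 33.8% held CCAAT and 32.7% held GGGCGG. The letters of the AP-1 site (TGACTCA, in 4.46% of all windows), of the cAMP response element (TGACGTCA, in 1.55%) and of the TEAD site (GGAATG, in 12.6%) were searched too and were in neither window. A match describes letters only.

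Has2, the main hyaluronan synthase of fibroblasts (chromosome 15, 56665627 to 56694539, minus strand, GRCm38), was lower in cultures from Ephb4 CKO mice than in those from controls after bleomycin, with no overlap. Has2 was at 317, 75.6, 135 and 207 CPM in Ephb4 control bleomycin mice 1 to 4, and at 13.7, 7.42, 7.76 and 0.733 CPM in Ephb4 CKO bleomycin mice 1 to 4. After PBS it was at 23.4, 0.703, 222 and 0.137 CPM in Ephb4 control mice 1 to 4, and at 5.43, 1.64, 22.7, 4.73 and 4.60 CPM in Ephb4 CKO mice 1 to 5. Ephb4 control PBS mouse 3 thus lay among the Ephb4 control bleomycin libraries, while the other 3 Ephb4 control PBS libraries lay below all of them. The mean of 184 ± 104 CPM (SD, n = 4) in Ephb4 control mice after bleomycin stood against 7.41 ± 5.31 CPM (SD, n = 4) in Ephb4 CKO mice, a log2 fold change of −4.60 (SE 1.63, 95% interval −8.13 to −1.07). The adjusted p was 0.211 with edgeR's quasi-likelihood test and 0.0206 with DESeq2, and ran from 0.0206 to 1 over the alternatives tried.

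Within Ephb4 CKO mice, Has2 did not separate bleomycin from PBS libraries (log2 fold change −0.11, SE 1.34, 95% interval −3.00 to 2.79, edgeR adjusted p = 1). After PBS, the log2 fold change of Has2 between Ephb4 CKO and control mice was −2.99 (SE 1.39, edgeR adjusted p = 1), and it was −0.07 without Ephb4 control PBS mouse 3. The test of whether the bleomycin effect on Has2 differed between genotypes gave −1.61 on the log2 scale (SE 1.96, edgeR adjusted p = 0.927), and −4.54 (SE 1.84, adjusted p = 0.386) without Ephb4 control PBS mouse 3. The comparison of genotypes after bleomycin shares its Ephb4 control libraries with the comparison Cemip was picked on.

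Has1, the less active synthase (chromosome 17, 17843323 to 17855205, minus strand), was close to absent. It reached 8.02 CPM (949 counts) in Ephb4 control bleomycin mouse 1 and stayed at or below 0.594 CPM in the other 16 libraries, 5 of which held at most 3 counts. Per kilobase of exon, Has2 was 9.14 to 547 times as abundant as Has1 in the libraries with more than 3 Has1 counts. The mean log2 CPM of Has1 differed by −2.54 between Ephb4 CKO and control mice after bleomycin, and the 2-sided exact permutation p of 0.0571 compares with a smallest possible 0.0286. For bleomycin against PBS in Ephb4 CKO mice the exact permutation p was 0.468 at a log2 difference of 0.76, and for the genotypes after PBS it was 0.794 at 0.40, with a smallest possible p of 0.00794 in each. Of these 3 tests, none passed 0.05 before adjustment.

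**Figure D1:**
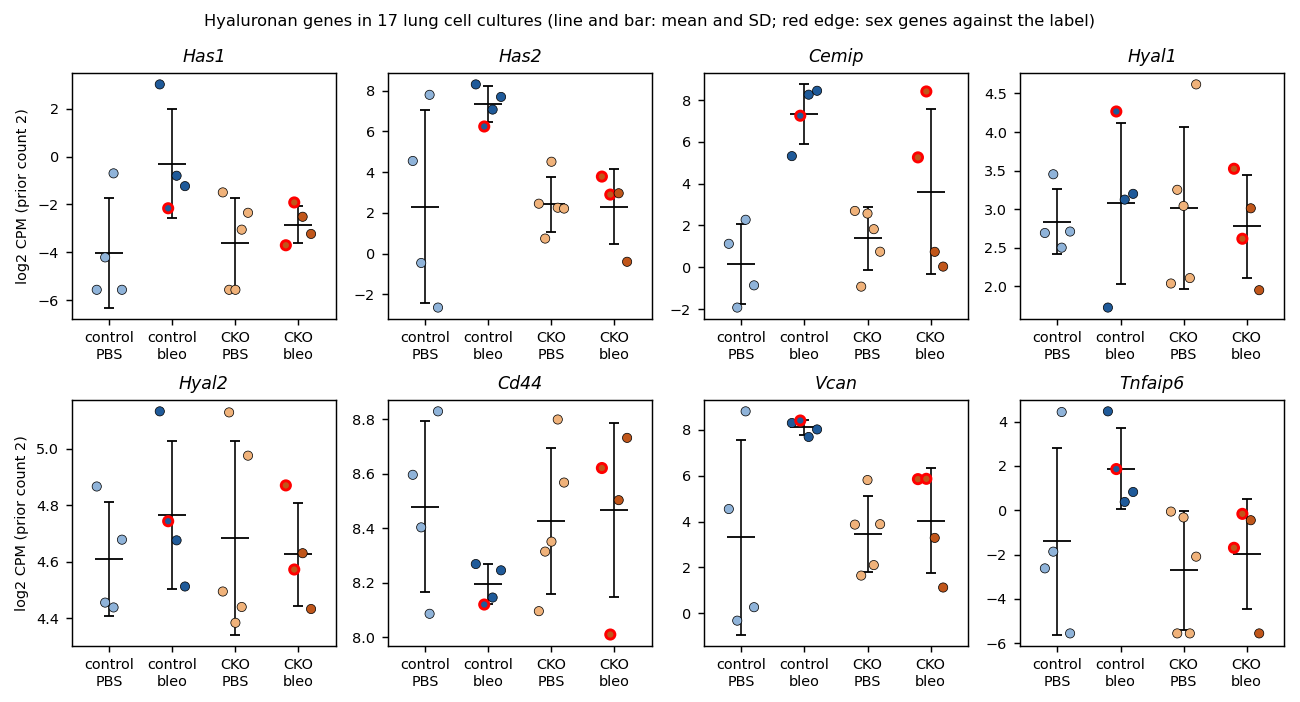
Level of each of the 8 members in 17 libraries on the log2 CPM scale (prior count 2), by group, with the mean and SD; a red edge marks the 3 libraries with sex genes against the label. Has2 and Vcan in Ephb4 control bleomycin libraries lie above every Ephb4 CKO library, Cemip is high in all 4 Ephb4 control bleomycin libraries and in Ephb4 CKO bleomycin mice 1 and 2, and the axes of Hyal1, Hyal2 and Cd44 span a narrower range than the others.

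Cemip (chromosome 7, 83932857 to 84086502, minus strand), a secreted protein needed for hyaluronan depolymerization by fibroblasts, was the member on which the choice was made. It was at 2.16, 0.242, 4.81 and 0.528 CPM in Ephb4 control PBS mice 1 to 4, and at 39.9, 152, 306 and 348 CPM in Ephb4 control bleomycin mice 1 to 4. The lowest bleomycin library was thus above the highest PBS library, and the log2 fold change was 6.70 (SE 1.74). Those values chose Cemip and carry no test here.

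In Ephb4 CKO mice, Cemip split the bleomycin libraries into a high and a low pair. The members were chosen with earlier results of these data known, so these values may not be independent of the choice. It was at 38.2 and 340 CPM in Ephb4 CKO bleomycin mice 1 and 2, and at 1.65 and 1.00 CPM in mice 3 and 4. After PBS it was at 6.46, 0.505, 5.92, 3.52 and 1.65 CPM in Ephb4 CKO mice 1 to 5, so that the low pair lay inside the PBS range and the high pair above it. The log2 fold change was 4.71 (SE 1.44, 95% interval 1.58 to 7.83), at an unadjusted p of 0.00529 and an adjusted p of 1 with edgeR. Cemip was over 10 CPM in 6 libraries, all after bleomycin, so it entered this test through the groups where it was high. The fold change and its p-values are therefore a description only. DESeq2 gave an adjusted p of 0.242, and the alternatives ran from 0.242 to 1. With the fibroblast markers as a covariate the log2 fold change was 2.38 (SE 1.27), and with the animal series it was 3.31 (SE 2.21), each at an edgeR adjusted p of 1.

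The sex genes of the high pair, and not of the low pair, went against the label, and the high pair also came from number series 12. Without the 3 libraries that went against the label, the Cemip log2 fold change in Ephb4 CKO mice was −1.47 (SE 1.22). Within series 12, the Ephb4 CKO bleomycin libraries (38.2 and 340 CPM) exceeded the PBS libraries (6.46 and 0.505 CPM), and within series 11 the bleomycin libraries (1.65 and 1.00 CPM) lay at or below the lowest of the PBS libraries (5.92, 3.52 and 1.65 CPM). The part of the animal series, or of a swap of labels, in the difference was not tested.

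Against Ephb4 control mice after bleomycin, Cemip was therefore not separated in Ephb4 CKO mice (211 ± 142 against 95.3 ± 164 CPM, SD, n = 4 each). The log2 fold change was −1.12 (SE 1.37), and −7.45 (SE 1.74) without the 3 libraries that went against the label. The interaction of genotype with bleomycin was −1.99 (SE 1.91), and −8.31 (SE 1.91) without those libraries. Both use the Ephb4 control bleomycin libraries whose high values chose Cemip, so they are a description and carry no test.

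**Figure D2:**
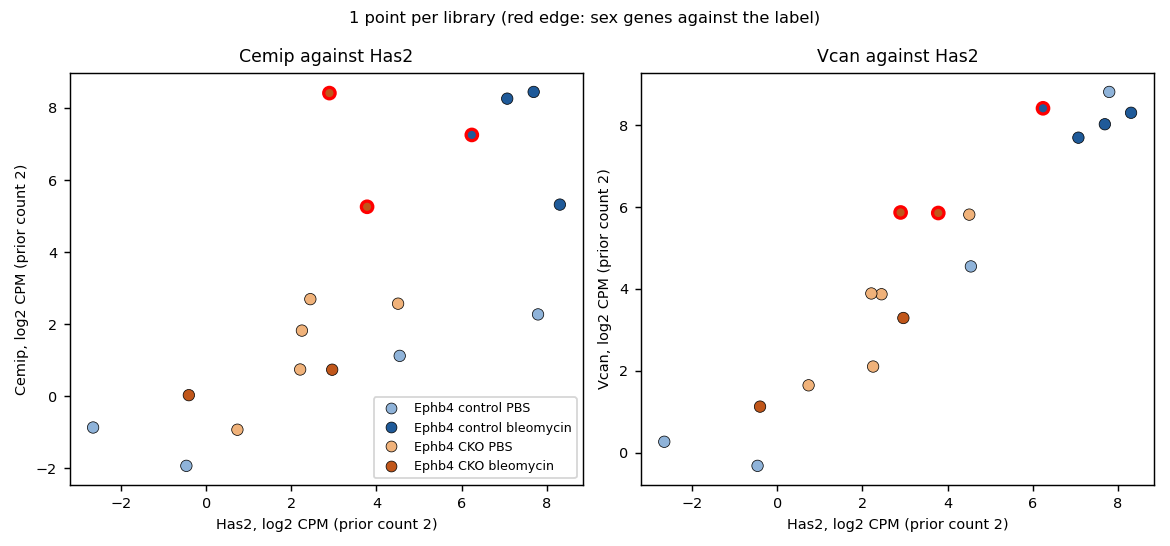
Cemip (left) and Vcan (right) against Has2, all as log2 CPM with a prior count of 2, 1 point per library, coloured by group, with a red edge on the 3 libraries with sex genes against the label. Vcan and Has2 lie along a single band, whereas Ephb4 CKO bleomycin mouse 2 combines Cemip at 340 CPM with Has2 at 7.42 CPM and Ephb4 control PBS mouse 3 combines Cemip at 4.81 CPM with Has2 at 222 CPM.

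Cemip and Has2 were uncoupled in single libraries. Ephb4 CKO bleomycin mouse 2 had Cemip at the level of the highest Ephb4 control bleomycin libraries with Has2 below all of them. In Ephb4 control PBS mouse 3 the reverse was seen, with Has2 at 222 CPM and Cemip at 4.81 CPM. Over the 17 libraries, which share 4 groups and differ in marker content, Pearson's r on log2 CPM was 0.718 (rho 0.74) for Cemip with Has2, 0.814 (rho 0.826) for Cemip with Vcan and 0.95 (rho 0.922) for Has2 with Vcan.

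The hyaluronidases Hyal1 and Hyal2, which cut hyaluronan in lysosomes and at the cell surface, overlapped between all groups. Hyal2 (chromosome 9, 107567945 to 107572779, plus strand) lay between 20.9 and 35.1 CPM in all 17 libraries. Hyal1 (chromosome 9, 107576927 to 107581710, plus strand) lay between 3.29 and 24.5 CPM. Exons of Naa80 and Hyal3 on the same strand overlap the 3777 exonic bases of Hyal1, so its count is uncertain. The overlaps of these genes add up to 2079 bases, a sum that can hold bases shared by both.

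Neither hyaluronidase passed edgeR's test in any comparison. After bleomycin, the log2 fold change between Ephb4 CKO and control mice was −0.12 for Hyal2 (95% interval −0.55 to 0.31) and −0.41 for Hyal1 (95% interval −1.67 to 0.84). Between bleomycin and PBS in Ephb4 CKO mice it was −0.12 for Hyal2 (95% interval −0.53 to 0.29) and −0.48 for Hyal1 (95% interval −1.68 to 0.72). The intervals of Hyal2 leave out a doubling or a halving, which is 1 on the log2 scale, and those of Hyal1 leave out the doubling but not the halving.

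Cd44, the main hyaluronan receptor (chromosome 2, 102811141 to 102901665, minus strand), was the most abundant member per kilobase of exon in 14 of the 17 libraries. Its level lay between 258 and 455 CPM in all libraries, with group means of 363 ± 77.4, 293 ± 14.9, 349 ± 66.0 and 360 ± 72.7 CPM (SD, n = 4, 4, 5 and 4) in Ephb4 control PBS, control bleomycin, CKO PBS and CKO bleomycin mice. In the order of Cd44 levels, Ephb4 control bleomycin mice came last, with ranges that overlapped those of their neighbours. The log2 fold change between Ephb4 CKO and control mice after bleomycin was 0.32 (SE 0.20, edgeR adjusted p = 0.336), and across the 17 libraries Cd44 ran against the fibroblast marker score (r −0.721, rho −0.652).

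Vcan (chromosome 13, 89655312 to 89742509, minus strand) encodes versican, a large proteoglycan that binds hyaluronan through its head domain. It was at 316, 341, 207 and 260 CPM in Ephb4 control bleomycin mice 1 to 4 and at 57.9, 58.4, 9.77 and 2.16 CPM in Ephb4 CKO bleomycin mice 1 to 4. After PBS it was at 23.4, 0.780, 449 and 1.2 CPM in Ephb4 control mice 1 to 4 and at 14.6, 3.11, 56.3, 4.28 and 14.8 CPM in Ephb4 CKO mice 1 to 5. Every Ephb4 CKO library, after PBS or bleomycin, was below every Ephb4 control bleomycin library, and Ephb4 control PBS mouse 3 was again the exception among controls.

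After bleomycin, the log2 fold change of Vcan between Ephb4 CKO and control mice was −3.10 (SE 1.58, 95% interval −6.52 to 0.32). The adjusted p was 0.266 with edgeR and 0.119 with DESeq2, and ran from 0.105 to 1 over the alternatives. After PBS the log2 fold change was −2.68 (SE 1.43, edgeR adjusted p = 1), and it turned to 1.12 without Ephb4 control PBS mouse 3. Between bleomycin and PBS in Ephb4 CKO mice it was 0.75 (SE 1.38, edgeR adjusted p = 1).

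Tnfaip6 (chromosome 2, 52038009 to 52056686, plus strand) encodes a secreted protein that links hyaluronan to the heavy chains of inter-alpha-inhibitor. It was at 22.0, 3.61, 1.28 and 1.75 CPM in Ephb4 control bleomycin mice 1 to 4 and at 0.288, 0.873, 0.711 and 0 CPM in Ephb4 CKO bleomycin mice 1 to 4, without overlap. After PBS it was at 21.6 CPM in Ephb4 control mouse 3, at most 0.253 CPM in the other 3 Ephb4 control mice, and at most 0.938 CPM in the 5 Ephb4 CKO mice. Tnfaip6 passed the filter through 2 libraries alone, Ephb4 control PBS mouse 3 and Ephb4 control bleomycin mouse 1.

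The log2 fold change of Tnfaip6 between Ephb4 CKO and control mice after bleomycin was −3.88 (SE 2.18, edgeR adjusted p = 0.3), with 0.145 to 1 over the alternatives. After PBS it was −3.85 (SE 1.99, edgeR adjusted p = 1) and turned to 1.52 without Ephb4 control PBS mouse 3. Tnfaip6 passed the filter through Ephb4 control libraries alone, so both comparisons of genotypes are a description only. Per kilobase of exon, Has2 was at 43.4 ± 24.6 CPM, Cd44 at 43.3 ± 2.19, Vcan at 19.4 ± 4.12, Cemip at 17.3 ± 11.6, Hyal2 at 8.37 ± 1.61, Tnfaip6 at 4.19 ± 5.83, Hyal1 at 2.67 ± 1.76 and Has1 at 0.508 ± 0.846 in Ephb4 control mice after bleomycin (SD, n = 4). In Ephb4 CKO mice after bleomycin the order per kilobase was Cd44 at 53.1 ± 10.7, Cemip at 7.79 ± 13.4, Hyal2 at 7.54 ± 0.979, Vcan at 2.22 ± 2.09, Hyal1 at 1.95 ± 0.856, Has2 at 1.75 ± 1.25, Tnfaip6 at 0.274 ± 0.233 and Has1 at 0.0298 ± 0.0185 CPM (SD, n = 4). In mean ± SD, each member overlapped its neighbour in the order, except Cd44 and Vcan in Ephb4 control mice, and Cd44 and Cemip as well as Hyal2 and Vcan in Ephb4 CKO mice. Has2 in Ephb4 control mice and Cemip in Ephb4 CKO mice overlapped members further down as well.

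**Figure D3:**
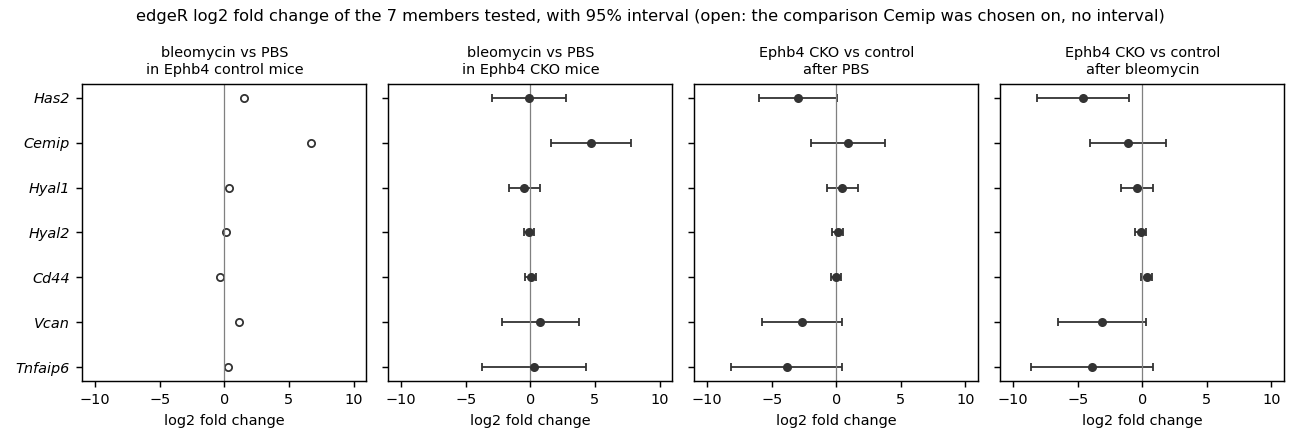
Log2 fold change from edgeR for the 7 members tested in 4 comparisons, with 95% intervals except in the leftmost panel (open points), the comparison on which Cemip was chosen. In the panel of genotypes after bleomycin, Has2 lies at −4.60, Tnfaip6 at −3.88 and Vcan at −3.10, while Hyal1, Hyal2 and Cd44 lie within 0.48 of 0 in all 4 panels; the Cemip interval there uses libraries that chose Cemip.

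Counted over the 7 members tested, none was called by edgeR at an adjusted p under 0.05 in any comparison, and 0% of the 10481 genes were. In Ephb4 CKO against control mice after bleomycin, 1 of 7 members (Has2) had an unadjusted p under 0.05, against 20.2% of all genes, and 1 of 7 was called by DESeq2, against 3.81% of all genes. The groups did not overlap for 3 of 7 members, all lower in Ephb4 CKO mice, against 22.3% of all genes in either direction and 13.8% in that direction. Tnfaip6, which with Has2 and Vcan made up the 3, passed the filter through Ephb4 control libraries alone, so its lower level in Ephb4 CKO mice was in part set by the filter and lends the count no weight. The median log2 fold change was −1.12 over the members and 0.01 over all genes. The median of the members is the value of Cemip, which was chosen on the Ephb4 control bleomycin libraries, so nothing is read from it. Without the 3 libraries that went against the sex label, 5 of 7 members were apart. In those groups of 2 and 3 libraries, 46.8% of all genes were apart. The members were Has2, Cemip, Vcan and Tnfaip6, lower in Ephb4 CKO mice, and Cd44, higher. Cemip was chosen on these Ephb4 control libraries and Tnfaip6 passed the filter through control libraries, so neither lends the count weight. Within series 12, 3 of 7 were apart (Has2, Vcan and again Tnfaip6), against 41.6% of all genes.

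In the other comparisons the members stood as follows. Between bleomycin and PBS in Ephb4 CKO mice, 1 of 7 members (Cemip) had an unadjusted p under 0.05, against 0.964% of all genes. Cemip passed the filter through bleomycin libraries alone, so it lends this count no weight. No member had groups apart in that comparison, against 0.0859% of all genes, and no member was called by DESeq2. Between Ephb4 CKO and control mice after PBS, 1 of 7 (Has2) had an unadjusted p under 0.05, against 1.99% of genes, none had groups apart, against 0.191%, and none was called by DESeq2. That count of 1 rested on Ephb4 control PBS mouse 3, without which the Has2 log2 fold change was −0.07. For the interaction of genotype with bleomycin, no member had an unadjusted p under 0.05, against 3.46% of genes, and DESeq2 called none. The comparison of bleomycin with PBS in Ephb4 control mice chose Cemip, so its counts restate the choice and nothing is read from them. There 1 of 7 had an unadjusted p under 0.05 (14.3% of all genes), 1 was called by DESeq2 (1.58% of all genes) and 1 had groups apart (8.82% of all genes), Cemip each time.

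In Ephb4 control mice, the log2 fold change between bleomycin and PBS was 1.5 for Has2, 1.16 for Vcan, 0.39 for Hyal1, 0.31 for Tnfaip6, 0.11 for Hyal2 and −0.35 for Cd44. Their bleomycin and PBS ranges overlapped, for Has2, Vcan and Tnfaip6 through Ephb4 control PBS mouse 3. Without that mouse the log2 fold change was 4.45 for Has2, 5.00 for Vcan and 5.71 for Tnfaip6. Its library held 9106 CPM of summed fibroblast markers, whereas the other 3 Ephb4 control PBS libraries held at most 1399 CPM.

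**Figure D4:**
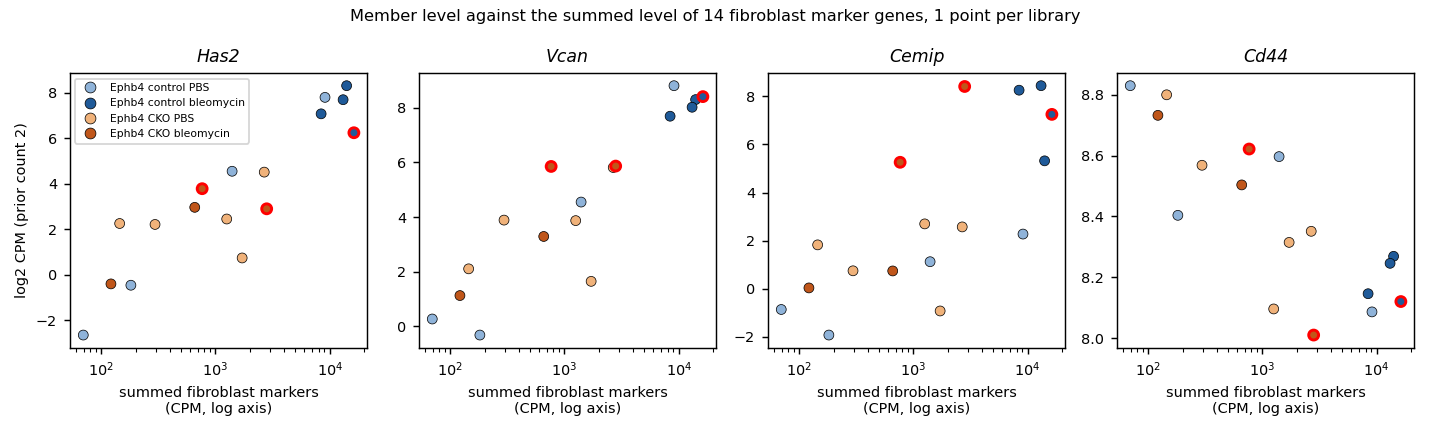
Has2, Vcan, Cemip and Cd44 (log2 CPM, prior count 2) against the summed CPM of 14 fibroblast marker genes on a log axis, 1 point per library. Has2 and Vcan lie higher where the marker sum is higher, Cd44 lies lower, and Cemip in Ephb4 CKO bleomycin mice 1 and 2 lies above libraries of a like marker sum.

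The levels of 5 members ran with those of the fibroblast markers. Across the 17 libraries, the correlation of log2 CPM with the mean log2 level of the 14 markers was 0.966 for Vcan (rho 0.951), 0.925 for Has2 (rho 0.919), 0.877 for Tnfaip6 (rho 0.883), 0.835 for Cemip (rho 0.843) and 0.65 for Has1 (rho 0.671). It was 0.11 for Hyal1 and 0.06 for Hyal2. With the marker level as a covariate, the log2 fold change between Ephb4 CKO and control mice after bleomycin was −0.32 for Has2, 1.16 for Vcan, 0.89 for Tnfaip6 and 0.40 for Cemip.

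Set as a percent of the summed fibroblast markers of the same library, Has2 ranged from 0.464% to 2.25% in Ephb4 control bleomycin libraries and from 0.264% to 1.79% in Ephb4 CKO bleomycin libraries, and from 0.0959% to 3.27% in the PBS libraries of the Ephb4 CKO mice. Vcan ranged from 1.98% to 2.46% in Ephb4 control bleomycin libraries and from 1.48% to 7.57% in Ephb4 CKO bleomycin libraries. On this scale the ranges of Has2 and Vcan overlapped between the genotypes after bleomycin. Cemip was at 0.283%, 0.933%, 3.63% and 2.65% in Ephb4 control bleomycin mice 1 to 4 and at 5.00%, 12.1%, 0.250% and 0.824% in Ephb4 CKO bleomycin mice 1 to 4. On this scale alone, Ephb4 CKO bleomycin mice 1 and 2 held the highest Cemip values of the 8 bleomycin libraries. In CPM, Ephb4 CKO mouse 1 (38.2) lay below every Ephb4 control bleomycin library, and Ephb4 CKO mouse 2 (340) below Ephb4 control mouse 4 (348). This scale was chosen after the levels had been seen and carries no test. The markers include matrix genes, and every fibroblast marker kept was lower in Ephb4 CKO than in control mice after bleomycin. Col1a1, Col1a2 and Col3a1 had means of 1457, 2903 and 3295 CPM in Ephb4 control mice and 54.7, 151 and 76.6 CPM in Ephb4 CKO mice. The sum, and the covariate, thus follow the level of such genes and do not measure fibroblast number alone.

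By the profile across 17 libraries (Pearson's r on log2 CPM, over the genes kept), the genes most like Has2 were Hoxa3 (0.957), Cdh11 (0.956) and Dnm3os (0.95), and those most like Vcan were Fbn1 (0.98), Cdh11 (0.98) and Bmper (0.977). Fbn1 is itself one of the fibroblast markers. Cemip had Tbx18 (0.922), 3300005D01Rik (0.919) and Nsg1 (0.909) nearest to it, and Tnfaip6 had Csgalnact1, Plat and Adamts4 (0.948 each). For Has1 they were Ugdh (0.888), Itga5 (0.874) and Crtap (0.841). The genes nearest to Hyal1 were Rab11fip5 (0.811), C1qa (0.789) and C1qc (0.783), those nearest to Hyal2 were Dusp7 (0.791), Pacsin2 (0.767) and Upf1 (0.756), and those nearest to Cd44 were Yeats4 (0.898), Cdkn2aipnl (0.86) and Cpt1a (0.857).

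A wider list of 50 genes of hyaluronan turnover, of which 28 passed the filter, gave no gene called by edgeR in any of the 5 tests. Between Ephb4 CKO and control mice after bleomycin, 4 of 28 (14.3%) had an unadjusted p under 0.05, a smaller share than the 20.2% of all genes. Among these, Pgm3 (log2 fold change −0.79, SE 0.23, edgeR adjusted p = 0.196) and Gnpnat1 (−1.42, SE 0.49, adjusted p = 0.21) were lower in Ephb4 CKO mice, and both are enzymes on the way to UDP-N-acetylglucosamine, a hyaluronan substrate. Gusb (1.14, SE 0.51, adjusted p = 0.237) and Hexa (1.15, SE 0.54, adjusted p = 0.246), which encode lysosomal glycosidases that remove sugars from hyaluronan fragments, were higher. The median log2 fold change was −0.34 over the 28 genes and 0.01 over all genes tested.

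Over all genes tested, 5169 of 10481 had a lower fitted level in Ephb4 CKO mice after bleomycin. By role, 6 of the 7 genes of substrate supply kept were lower in Ephb4 CKO mice after bleomycin (median −0.59), and 3 of the 5 genes of breakdown and uptake were higher (median 0.83). Of 9 receptors and their membrane partners, 5 were higher and 4 lower (median 0.15), and only 3 of 18 genes of matrix binding and cross-linking were kept (median 0.00). The 4 versican-cleaving Adamts proteases kept, of 6, were all lower, with log2 fold changes of −3.26 for Adamts4, −1.45 for Adamts5, −1.39 for Adamts1 and −1.07 for Adamts9 (median −1.42). None of these 4 passed an unadjusted p of 0.05.

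After PBS, 7 of 7 genes of substrate supply were lower in Ephb4 CKO than in control mice (median −0.46), 4 of 5 genes of breakdown and uptake were higher (median 0.48) and 4 of 4 Adamts proteases were lower (median −1.02). For each of these proteases the SD in Ephb4 control PBS mice exceeded the mean. It was 18.5 ± 28.1 CPM for Adamts1, 15.6 ± 28.5 for Adamts4, 3.62 ± 5.33 for Adamts5 and 10.9 ± 18.4 for Adamts9. Whether single libraries set these counts by role was not tested. Of all genes tested, 5621 of 10481 were lower in Ephb4 CKO than in control mice after PBS. Uap1 (log2 fold change −0.50, SE 0.23, edgeR adjusted p = 1), another enzyme of UDP-N-acetylglucosamine synthesis, was the only gene of 28 (3.57%) with an unadjusted p under 0.05 there. Of all genes, 1.99% had such a p. Between bleomycin and PBS in Ephb4 CKO mice none of the 28 reached it, against 0.964% of all genes. In Ephb4 control mice, a comparison given as a description only, 4 of 28 genes (14.3%) had an unadjusted edgeR p under 0.05. The share of all genes was the same, 14.3%. The 4 were Stab1, a scavenger receptor that takes up hyaluronan (log2 fold change 1.56 after bleomycin), and Tlr2, Ezr and Ugp2 (−1.83, −0.90 and −0.64). In Ephb4 control mice the 4 Adamts proteases were all higher after bleomycin (median 1.51).

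**Figure D5:**
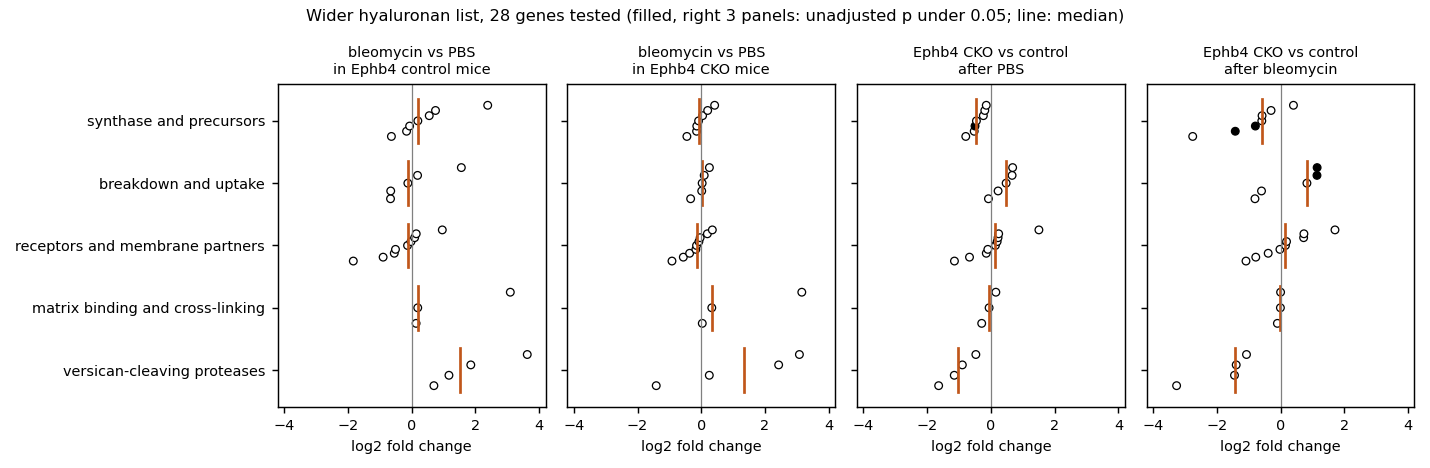
Log2 fold change from edgeR of the 28 genes kept of the wider hyaluronan list, by role, in 4 comparisons, with the median of each role as a line; in the right 3 panels, filled points had an unadjusted p under 0.05. In the panel of genotypes after bleomycin, all 4 versican-cleaving proteases lie below 0 and Gusb and Hexa are the filled points above it.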

How the data were processed

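Total RNA libraries from passage-1 lung cells of 17 mice were sequenced as strand-specific paired-end 75 bp reads. The authors trimmed reads with cutadapt (1.18 per the submitters' processing notes, a later version in the study's methods), aligned them to GRCm38 with HISAT2 2.1.0 and estimated transcripts with StringTie; the authors' deposited whole-number counts per gene derive from transcript coverage and were not normalized. The study's model held a batch term whose value for each library is not given in the sources used here, so no batch was fitted.

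The filter (more than 10 CPM in at least 2 libraries), TMM normalization and the quasi-likelihood test used edgeR 4.0.16 (R 4.3.3); the model gave each group a mean, was fitted to the 17 libraries together, and was followed by Benjamini-Hochberg adjustment over 10481 genes; DESeq2 1.42.0 was the alternative tool. Standard errors are the absolute log2 fold change divided by the square root of F. Has1 was compared by 2-sided exact permutation. Exon lengths and positions came from GENCODE M21 and promoters from RefSeq (GRCm38.p6), where 7 of 8 members matched; Has2 was missing there. Each library is 1 mouse, and no column was unmapped. The fit was also run on simulated counts with known changes. Finding them was required only at a dispersion (spread between libraries) below the 0.311 of these data, so that run does not measure power here.

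The members, the wider list and the marker lists were chosen with earlier results of these data known. Named genes were the 8 members, Ephb4, for the wider list up to 3 genes in each direction with an unadjusted p under 0.05, and the 3 genes nearest in profile to each member; the 4 Adamts genes were named after their values were seen. Alternatives were DESeq2, RLE and upper quartile normalization, 2 other filters, only the groups compared, covariates (sex, animal series, fibroblast or macrophage markers), the libraries without those against the sex label, each library left out, a prior count of 0.5 and mean log2 in place of summed marker levels.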

Additional observations from a re-analysis of the deposited data

How the results depend on the processing

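No paired analysis was possible because the replicate numbers were given in accession order and no label says that a shared part of the animal numbers marks a litter or day; the animal series entered as a covariate only. No member was called by edgeR under any alternative; DESeq2 called 1 (Cemip) for bleomycin against PBS in Ephb4 control mice and 1 (Has2) for the genotypes after bleomycin, with log2 fold changes of 6.70 and −4.60; the former restates the choice of Cemip. The number of members with an unadjusted p under 0.05 depended on the setting. For bleomycin against PBS in Ephb4 control mice it was 2 with filterByExpr or no filter, 0 with animal series or fibroblast markers as covariate, and 1 to 5 with a library left out (5 without Ephb4 control PBS mouse 3). For the genotypes after bleomycin it was 3 with DESeq2 or only the groups compared, 2 with filterByExpr, no filter or without the libraries against the sex label, 0 with fibroblast or macrophage markers as covariate, and 1 to 3 with a library left out. For bleomycin against PBS in Ephb4 CKO mice it was 0 with animal series or fibroblast markers or without the libraries against the sex label, and 0 to 1 with a library left out. For the genotypes after PBS it was 3 with DESeq2, 0 with only the groups compared, each of the 4 covariates or without the libraries against the sex label, and 0 to 3 with a library left out. For the interaction it was 1 without the libraries against the sex label and 0 to 2 with a library left out. That 1 was Cemip, as was 1 of the 2 for the genotypes after bleomycin without those libraries. Cemip was chosen on its Ephb4 control bleomycin values. Where a count uses those values, Cemip in it is a description and carries no test.

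Signs turned in these log2 fold changes; the cause was not tested. With fibroblast markers as covariate, the change in Ephb4 control mice became −0.69 for Has2, 0.030 for Cd44, −1.12 for Vcan and −2.45 for Tnfaip6, that of the genotypes after bleomycin 0.40 for Cemip, −0.014 for Cd44, 1.16 for Vcan and 0.89 for Tnfaip6, that in Ephb4 CKO mice −0.10 for Vcan and −0.79 for Tnfaip6, and that after PBS 0.14 for Vcan. With macrophage markers, Tnfaip6 in Ephb4 control mice became −0.48 and Hyal2 between genotypes after bleomycin 0.034. With animal series, Hyal2 became −0.084 in Ephb4 control mice and 0.016 between genotypes after bleomycin, and Has2 0.24 in Ephb4 CKO mice. Without the libraries against the sex label, Hyal1 became −0.10 in Ephb4 control mice, and Cemip −1.47, Vcan −1.67 and Tnfaip6 −0.11 in Ephb4 CKO mice.

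With a library left out, Hyal1 ran from −0.11 to 0.72 and Tnfaip6 from −1.37 to 5.71 in Ephb4 control mice, Hyal1 from −0.74 to 0.091 between genotypes after bleomycin, and in Ephb4 CKO mice Has2 from −0.57 to 0.85, Hyal1 from −0.76 to 0.12, Hyal2 from −0.20 to 0.035, Cd44 from −0.067 to 0.14 and Tnfaip6 from −0.20 to 0.90. Between genotypes after PBS, Hyal1 ran from −0.15 to 0.73, Hyal2 from −0.042 to 0.22, Cd44 from −0.14 to 0.044, Vcan from −3.75 to 1.12 and Tnfaip6 from −4.50 to 1.52. Low counts limit Has1 and Tnfaip6, which held at most 3 counts in 5 and 4 libraries. The alternative prior count moves log2 CPM only for such low values.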
